A study of Mus musculus with 12 samples.

Results

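The comparison described here set primary neurons exposed to oxygen-glucose deprivation (OGD) against their own untreated controls, across every gene with enough counts. Its members are the 3 OGD libraries and the 3 OGD control libraries, chosen by their sample titles, and they make up 6 of the 12 libraries of the series. All came from primary neurons of C57Bl6 mice, a wild-type inbred strain. The OGD cells were kept without oxygen and glucose, and the labels give no treatment for the OGD control cells. The other 6 libraries, kainic acid (KA) at 100 µM and KA control, entered the shared estimate of the spread and are used below only where the OGD response is set beside another injury. How long the deprivation and any recovery lasted, the brain region and the age of the cultures were not analysed here, since the labels do not state them.

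OGD is a culture model of ischaemia, in which the supply of oxygen and of the main fuel of neurons stops together. Cells sense oxygen through prolyl hydroxylases of the EGLN family, which mark the hypoxia-inducible factors HIF1A and EPAS1 for destruction by VHL and use oxygen and 2-oxoglutarate as substrates. When oxygen is short these factors persist and, with ARNT, activate genes of glucose uptake, glycolysis and survival through a short promoter sequence with the core RCGTG. Energy stress also acts through AMPK and mTOR on protein synthesis, and through calcium and kinase signals on activity-regulated transcription.

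Total counts were between 15860940 and 20797911 in the OGD libraries and between 13260609 and 17324550 in the OGD control libraries. The count filter kept 13139 of 22899 genes for testing. Levels are given in CPM, read counts scaled to library size, which compare libraries and not genes of different length. A gene was called at an adjusted p under 0.05 (edgeR quasi-likelihood test, Benjamini-Hochberg adjusted over all genes tested). Whether the replicates came from separate cultures is not stated, so a p-value here reflects the spread among these libraries alone, and that spread may be technical.

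As sums, neuron markers were abundant and markers of other cell types were low. The summed level of 16 neuron markers was 11800 to 12100 CPM in the OGD libraries and 11400 to 12100 CPM in the OGD control libraries, although Rbfox3, which encodes the neuronal antigen NeuN, had at most 0.431 CPM in any of them. Among the 15 neuron markers tested, Tubb3 was higher in OGD and 3 were lower, including the neurofilaments Nefl and Nefm. The 12 astrocyte markers summed to 199 to 206 CPM in the OGD libraries, against 279 to 306 CPM in the OGD control libraries. Of the 9 astrocyte markers tested, 4 were lower in OGD and none was higher. Glul, the glutamine synthetase of astrocytes, had 105, 110 and 104 CPM in OGD, against 166, 177 and 183 CPM in OGD control. It was the most abundant of the 12 in every library, so the sum follows this gene most. Gfap and Aqp4, which define mature astrocytes, were at or below 1.29 CPM in each of the 6 libraries. Oligodendrocyte lineage markers summed to 36.9 to 41.9 CPM in OGD and 40.6 to 43 CPM in OGD control, with Pdgfra at 0 in all 6 libraries. Microglia markers summed to 5.58 to 7.19 CPM in OGD and 4.89 to 7.52 CPM in OGD control, with Ptprc and Trem2 at 0. Endothelial markers summed to 5.08 to 5.77 CPM in OGD and 6.65 to 7.21 CPM in OGD control, with Tek and Emcn at 0. Fibroblast and mural markers summed to 16.3 to 19.8 CPM in OGD and 20.9 to 23 CPM in OGD control, with Pdgfrb at 0. In bulk RNA fewer cells of a type and less RNA per cell cannot be told apart. Genes with several annotated transcripts may also be undercounted in the deposited counts. The neuron marker Syt1, like Rbfox3, was low, at 0.719 to 1.45 CPM in the 6 libraries. A marker that is low or at 0 therefore does not show that its cell type was scarce.

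OGD moved many genes by a small amount, and the genes that moved far were mostly of low level. In OGD, 2315 genes were higher (17.6% of those tested) and 2694 lower (20.5%), so that 38.1% were called in either direction. Only 54 were called and over 2-fold higher (0.411%), and 164 were called and over 2-fold lower (1.25%). The median level was 0.2 log2 CPM among the 164 large falls and -0.19 log2 CPM among the 54 large rises, against 4.08 log2 CPM over all genes tested. Of those 164 genes, 36 had a mean of at least 2 log2 CPM, and of the 54 genes 6 did. The libraries of the groups did not overlap for 49.0% of genes tested. The median log2 fold change over all genes tested was 0.006.

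Among genes called without overlap of the libraries and with a mean logCPM of 2 or more, the largest fall was that of Hspb8, a small heat-shock protein that works with the co-chaperone BAG3. It had 2.26, 2.01 and 2.18 CPM in OGD, against 6.42, 7.4 and 9.96 CPM in OGD control. Every OGD library lay below every control library, and the controls varied more than the OGD libraries. The log2 fold change was -1.90 (SE 0.17, edgeR adjusted p = 5.05e-10). Nup210l, a relative of a nuclear pore membrane protein, had 5.64, 5.75 and 5.99 CPM in OGD, against 18.4, 18.6 and 23.4 CPM in OGD control. The groups were far apart (edgeR adjusted p = 1.42e-13). Baz1a, the large subunit of the ACF chromatin remodeller, lies at chromosome 12, 54892989 to 55014348 (GRCm38), and had the smallest adjusted p of any gene tested (edgeR, 1.26e-16). It shares exonic bases with Gm20403 on its own strand. It had 23.9, 22.1 and 21.9 CPM in OGD, against 66.2, 66.6 and 72.1 CPM in OGD control, so the groups lay far apart. Cdt1, which licenses DNA replication origins, and Dtl, the receptor of the cullin ligase that marks CDT1 for destruction, both fell (log2 fold changes -1.20 and -1.42, SE 0.14 and 0.15). Fgf10, a growth factor, fell by 1.43 on the log2 scale, and Rrad, a small GTPase that inhibits calcium channels, by 1.29. Ism1, a secreted protein, and Dgkk, a diacylglycerol kinase gene on the X chromosome, fell by 1.28 and 1.17. Muc2, Dennd2c, Fam83d and Gm15760, also among the 15 largest falls, had log2 fold changes between -1.48 and -1.18. Trim17, a ubiquitin ligase of neuronal death pathways, fell by 1.41, but its exons overlap those of Hist3h2a.

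Crebzf had the smallest adjusted p of the rises. It lies at chromosome 7, 90442729 to 90447994, and encodes a bZIP protein that binds the host cell factor HCFC1 and modulates other bZIP factors. Crebzf had 33.3, 34.3 and 37.7 CPM in OGD, against 15.2, 15.2 and 15 CPM in OGD control. The 3 control libraries were nearly equal and the lowest OGD library was over 2-fold above each of them (log2 fold change 1.22, SE 0.07, edgeR adjusted p = 2.53e-13). Dhtkd1, which encodes the 2-oxoadipate dehydrogenase of lysine breakdown, had 8.83, 7.58 and 9.07 CPM in OGD, against 3.28, 4.18 and 4.09 CPM in OGD control. Hspa1a, an inducible heat-shock protein, rose by 1.24 on the log2 scale, so that Hspb8 and Hspa1a, both of the heat-shock response, moved in opposite directions. Reads of Hspa1a can be shared with its near-identical neighbour Hspa1b, whose log2 fold change was 0.53, and both values are uncertain. Zcchc7, a subunit of the nuclear RNA surveillance complex TRAMP, had 36.4, 38.4 and 39.5 CPM in OGD, against 20.4, 22.1 and 21.4 CPM in OGD control. Hps1, a subunit of a lysosome-related organelle complex, rose by 0.79, and Spag4, a nuclear envelope protein, by 0.82. Micall2 and Amigo3 rose by 0.85 and 0.83. Gmppb rose by 1.14, but shares bases with Rnf123 on the opposite strand and with Gm20529. The unnamed genes A230073K19Rik, A930013F10Rik and 3110057O12Rik rose by 1.34, 0.99 and 0.99, and the antisense gene Srrm4os by 1.06. Strand was not kept in the libraries. Reads of genes that overlap on opposite strands, as for Fgf10, Rrad, Hps1, Dhtkd1 and Hspa1a, therefore cannot be assigned with certainty.

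**Figure D1:**
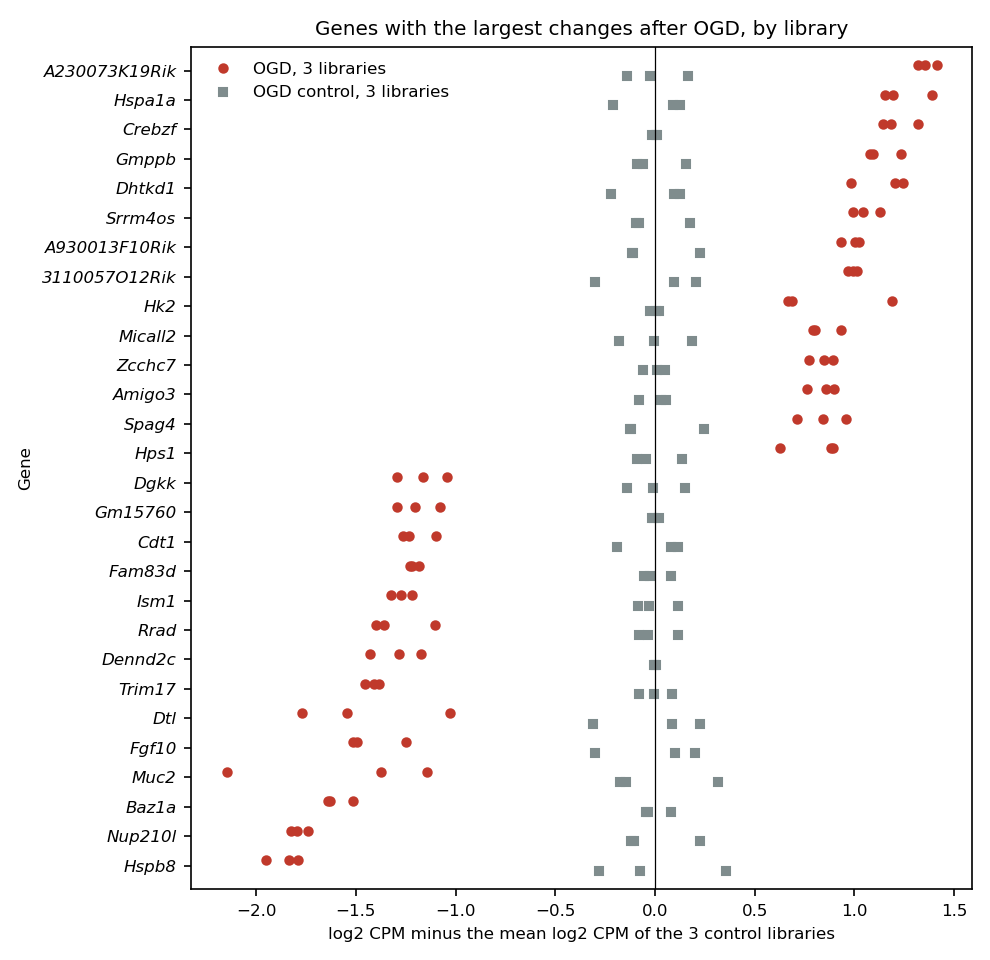
Level of 14 of the 15 genes with the largest rises and 14 of the 15 with the largest falls (rows), as log2 CPM minus the mean log2 CPM of the 3 control libraries (horizontal axis); red circles are the 3 OGD libraries and grey squares the 3 OGD control libraries. In each row the 3 OGD libraries lie on one side of the 3 control libraries, which the choice of these genes required; the red points spread most for Muc2, Dtl and Hk2.

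The genes with the smallest adjusted p were in part others. Beside Baz1a, the falls with the smallest adjusted p included those of Bahcc1, Gpr85, Lats2, Ism1, Dgkk, Map3k5, Tbr1 and Ints12. Bahcc1, a chromatin protein with a BAH domain at chromosome 11, 120232947 to 120292296, had 81.8, 90.7 and 87.9 CPM in OGD, against 167, 181 and 196 CPM in OGD control. Gpr85, an orphan receptor conserved in the brain, had 301, 297 and 305 CPM in OGD, against 517, 548 and 596 CPM in OGD control. For both genes the OGD libraries agreed closely and the control libraries spread more widely above them. Map3k5, the stress kinase ASK1, had 81.1, 95.1 and 91.7 CPM in OGD, against 163, 162 and 175 CPM in OGD control (a fall of 0.90 on the log2 scale, SE 0.05). Ints12, an Integrator subunit, fell by 1.11 on the log2 scale, but overlaps Gstcd on the other strand. Among the rises, Faf1, a ubiquitin-binding partner of the ATPase VCP, had 103, 104 and 109 CPM in OGD, against 66.5, 69.9 and 74.2 CPM in OGD control. Aldh9a1, an aldehyde dehydrogenase of carnitine synthesis, had 40.3, 37.6 and 40.1 CPM in OGD, against 21.5, 24.9 and 24 CPM in OGD control. Arrdc3, an arrestin-like adaptor of receptor turnover, rose by 0.53 (SE 0.05) on the log2 scale. In these 3 genes no OGD library fell within the range of the controls.

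The known HIF targets that rose included Hk2 of glycolysis and P4ha1 of collagen modification, while Hif1a itself and the oxygen sensors Egln1 and Egln2 had small falls. Of 26 tested HIF targets, 12 were higher in OGD (46.2%, against 17.6% of all genes tested) and 3 were lower (11.5%, against 20.5%). Their median log2 fold change was 0.11, against 0.006 over all genes tested. With the length trend described below removed, 12 were higher and 4 lower, and the median was 0.037, against -0.008 over all genes tested. In that setting 15.8% of all genes tested were higher and 20.9% lower. By library, the median of the list relative to the control mean was 0.211, 0.126 and 0.076 log2 in OGD, and -0.003, 0.024 and -0.023 log2 in OGD control. OGD replicate 1 was the highest and OGD replicate 3 the lowest of the OGD libraries, and the groups did not overlap. Vegfa, Pfkfb3, Car9 and P4ha2 were in the list but had too few counts to be tested.

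The promoter windows of 3 HIF targets that rose are shown because all 3 contain the core of the hypoxia response element, written ACGTG or GCGTG, which is in capitals on either strand (CACGT and CACGC are the same cores on the other strand). Each window runs from 250 bases before to 50 bases after the gene's start, 5′ to 3′ on the gene's strand, and comes from RefSeq on GRCm38.p6. Hk2 lies at chr6:82774405-82774704 on the minus strand, P4ha1 at chr10:59323046-59323345 on the plus strand and Narf at chr11:121236986-121237285 on the plus strand. The windows hold 2, 3 and 1 cores, in that order.
Hk2: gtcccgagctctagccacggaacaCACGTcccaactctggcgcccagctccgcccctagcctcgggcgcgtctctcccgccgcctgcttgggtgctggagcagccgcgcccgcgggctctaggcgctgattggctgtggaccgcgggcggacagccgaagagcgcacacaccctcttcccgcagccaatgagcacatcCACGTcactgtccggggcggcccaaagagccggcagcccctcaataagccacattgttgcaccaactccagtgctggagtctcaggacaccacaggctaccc
P4ha1: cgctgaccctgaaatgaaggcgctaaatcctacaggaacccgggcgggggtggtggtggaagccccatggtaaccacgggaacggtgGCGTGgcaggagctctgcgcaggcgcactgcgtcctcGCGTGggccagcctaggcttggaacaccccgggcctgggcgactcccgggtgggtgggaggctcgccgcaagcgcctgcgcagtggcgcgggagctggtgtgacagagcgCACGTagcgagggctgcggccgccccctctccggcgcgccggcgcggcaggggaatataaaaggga
Narf: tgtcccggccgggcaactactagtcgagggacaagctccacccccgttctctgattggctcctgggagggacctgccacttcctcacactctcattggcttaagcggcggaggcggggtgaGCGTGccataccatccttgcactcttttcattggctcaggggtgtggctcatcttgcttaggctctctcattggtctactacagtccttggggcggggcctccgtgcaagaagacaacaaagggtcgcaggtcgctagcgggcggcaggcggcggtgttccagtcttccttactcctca

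The core is common. Of the 13139 genes tested, 9806 had a promoter window, and 67.4% of these held ACGTG or GCGTG, while 28.9% held ACGTG. The same cores stood in 21 of the 22 tested HIF targets with a window (95.5%), and ACGTG in 15 of them (68.2%). Sequences other than these cores were also more frequent there. The SP and KLF motif stood in all 22, against 68.7% of all windows, and CCAAT in 14 (63.6%, against 42.3%). Of the other sequences counted, only the NRF1 motif was less frequent, in 0 of the 22, against 2.24%. The part of base composition in these shares was not tested. The list is of known HIF targets, whether called or not, so these shares do not measure the OGD response. All genes called higher held ACGTG in 31.9% of 1768 windows and all genes called lower in 27.6% of 2018. A match describes letters in a window and says nothing of binding.

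Hk2, the hexokinase that commits glucose to glycolysis at the mitochondrial surface (gene at 82725025 to 82774454 on chromosome 6), had 26.4, 18.4 and 18.7 CPM in OGD, against 11.8, 11.4 and 11.7 CPM in OGD control. OGD replicate 1 stood well above the other OGD libraries, and even the lowest OGD library was above the controls (log2 fold change 0.85, SE 0.12, edgeR adjusted p = 9.94e-07). P4ha1, a collagen prolyl hydroxylase, had 116, 95.2 and 97.3 CPM in OGD, against 66.5, 66.3 and 67.9 CPM in OGD control (a rise of 0.62 on the log2 scale, SE 0.06). OGD replicate 1 was again the highest, and the groups lay apart. Narf, a nuclear protein that binds prelamin A, had 99.4, 94.3 and 97.2 CPM in OGD, against 58.1, 65 and 60.2 CPM in OGD control (a rise of 0.66, SE 0.05). Ndrg1, a stress-response gene, had 102, 102 and 107 CPM in OGD, against 73.3, 76.9 and 76.5 CPM in OGD control.

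Other HIF targets were named after their values were seen. Pdk1, the kinase that closes pyruvate dehydrogenase, had 76.1, 70.4 and 69.6 CPM in OGD, against 49.7, 52.8 and 44.8 CPM in OGD control, a log2 fold change of 0.55 (SE 0.06). Slc2a1, the glucose transporter GLUT1, had 89, 71.3 and 70.8 CPM in OGD, against 62.9, 64.9 and 54 CPM in OGD control. The lowest OGD library for Slc2a1 was close to the highest control, and OGD replicate 1 stood apart. Ldha, Ak4 and Ankrd37 rose by 0.85, 0.79 and 0.73 on the log2 scale, each at under 5 CPM in all 6 libraries. For Ldha, an abundant transcript in most tissues, 0.688 to 1.62 CPM is a low level, and genes with several annotated transcripts may be undercounted in the table. The call of Ldha was lost without any one library other than OGD replicate 2, and that of Ak4 without OGD replicate 1 or OGD control replicate 2 or 3 (edgeR adjusted p = 0.0616 to 0.124). The neuronal glucose transporter Slc2a3 went the other way, with 942, 914 and 848 CPM in OGD, against 1062, 1107 and 1103 CPM in OGD control, a log2 fold change of -0.28. Ier3 and Egln1 were the other HIF targets that fell. Pgk1, Aldoa and Eno1, also enzymes of glycolysis, did not pass the test and had log2 fold changes of -0.07, 0.05 and 0.04. Aldoa, which has 3 RefSeq transcripts, had 25.5 to 29.9 CPM in the 6 libraries and may likewise be undercounted. With the length trend removed Pgk1 was called lower (log2 fold change -0.15, edgeR adjusted p = 0.00192).

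Hif1a had 161, 165 and 163 CPM in OGD, against 185, 175 and 182 CPM in OGD control, a small fall (log2 fold change -0.15, SE 0.05, edgeR adjusted p = 0.0213). Epas1, the second HIF alpha subunit, was near the limit of counting, with 0.564, 1.05 and 0.896 CPM in OGD, against 2.52, 1.55 and 1.47 CPM in OGD control, a log2 fold change of -1.06 (SE 0.29). The oxygen sensors split. Egln1 and Egln2 were lower (log2 fold changes -0.14 and -0.17, SE 0.05 each), and Egln3, itself a HIF target, was higher (log2 fold change 0.36, SE 0.11), with 11.3, 11.3 and 9.52 CPM in OGD, against 8.63, 9.49 and 7.03 CPM in OGD control. These small changes rest on few libraries. Hif1a lost its call without OGD replicate 1 or 3 or OGD control replicate 1 or 3 (edgeR adjusted p = 0.0605 to 0.0757), Egln1 without OGD replicate 1 or 2 or OGD control replicate 3 (0.0543 to 0.13), Egln2 without OGD control replicate 2 (0.0618), and Egln3 without OGD control replicate 3 (0.109, with a log2 fold change of 0.24). Arnt, Hif1an, the asparagine hydroxylase, and Vhl did not pass the test (edgeR adjusted p = 0.541, 0.533 and 0.727, log2 fold changes -0.31, -0.04 and -0.03). Hif3a had too few counts to be tested.

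The wider family of 2-oxoglutarate oxygenases, whose activity needs oxygen, moved both ways. Of 50 members tested, 12 were higher and 14 lower (24.0% and 28.0%, against 17.6% and 20.5% of all genes tested), with a median log2 fold change of -0.005. Among the histone demethylases Kdm7a, Jmjd1c, Kdm2b, Kdm5b, Kdm6a, Kdm2a, Phf2 and Phf8 fell, by 0.55, 0.56, 0.43, 0.26, 0.21, 0.20, 0.15 and 0.15 on the log2 scale. Kdm5a, Kdm5d and Kdm4d rose, by 0.23, 0.35 and 0.82. Kdm7a, which removes repressive histone methylation, had 38.9, 42.5 and 36.4 CPM in OGD, against 51.4, 59.1 and 61.8 CPM in OGD control. Of the AlkB homologues, some of which reverse methylation of nucleic acids, Alkbh5 and Alkbh4 fell by 0.37 and 0.30. Alkbh2, Alkbh6 and Alkbh7 rose by 0.63, 0.29 and 0.63. Alkbh5, the eraser of N6-methyladenosine, had 133, 126 and 130 CPM in OGD, against 160, 166 and 175 CPM in OGD control, without overlap. Tet3, which oxidises 5-methylcytosine, fell by 0.19, Hspbap1 by 0.64, and Asph, Jmjd6, Jmjd8 and P4htm rose by 0.33, 0.22, 0.25 and 0.22. Leaving out 1 library ended the call of Jmjd6 (OGD replicate 1), Kdm6a (OGD control replicate 3), Alkbh4 (OGD or OGD control replicate 2), Phf2 (OGD replicate 1 or OGD control replicate 2) and P4htm (OGD replicate 3 or OGD control replicate 1). The same held for Kdm2b (OGD replicate 1 or 2 or OGD control replicate 3), Kdm4d (OGD replicate 2 or OGD control replicate 2 or 3) and Phf8 (any library but OGD replicate 2 or OGD control replicate 1), with edgeR adjusted p-values of 0.0528 to 0.196 over these genes. With the length trend removed Phf2, Phf8 and P4htm were not called (edgeR adjusted p = 0.0884, 0.198 and 0.093). Kdm5d is on the Y chromosome. Asph, Jmjd6, Jmjd8, Kdm5a, Alkbh2, Egln2 and Kdm2b share exonic bases with genes on the other strand.

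Mitochondrial and metabolic genes were higher more often than lower. Over the 190 tested members of the metabolic and mitochondrial lists, 64 were higher in OGD (33.7%, against 17.6% of all genes tested) and 20 lower (10.5%, against 20.5%), with a median log2 fold change of 0.12. With the length trend described below removed, 49 were higher and 22 lower, with a median of 0.07. Over all genes tested 15.8% were higher and 20.9% lower with the trend removed. The strongest list was the mitochondrial breakdown of lysine and branched-chain amino acids, which feeds carbon from protein into the citric acid cycle: 14 of 23 tested members were higher and 1 was lower, with a median of 0.27. Its median by library was 0.244, 0.206 and 0.288 log2 in OGD, and 0.037, -0.048 and 0.027 log2 in OGD control. Beside Dhtkd1, Mut, the methylmalonyl-CoA mutase, had 11.8, 12.7 and 11.3 CPM in OGD, against 8.56, 7.82 and 6.54 CPM in OGD control. Auh, a hydratase of leucine breakdown, rose by 0.44 (SE 0.06). Ppm1k, the phosphatase that switches the branched-chain dehydrogenase on, was the member called lower (log2 fold change -0.23) and was named after its values were seen. Its call was lost without any one of OGD replicates 1 and 2 and OGD control replicates 1 to 3 (edgeR adjusted p = 0.0527 to 0.123).

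Fatty acid oxidation followed, with 11 of 31 members higher and 2 lower and a median of 0.21. Acadsb, an acyl-CoA dehydrogenase for branched chains, had 88.9, 89.6 and 90.4 CPM in OGD, against 68.2, 66.4 and 66.1 CPM in OGD control. The libraries of each group were nearly identical and the groups were far apart (log2 fold change 0.42, SE 0.05, edgeR adjusted p = 1.66e-08). Acaa2 and Etfa, the thiolase and the electron carrier of the pathway, rose by 0.50 and 0.40. The members that fell, Cpt1a and Cpt2, which carry fatty acids into mitochondria and were named after their values were seen, had under 4 CPM in every library. Leaving out any one library other than OGD replicate 2 and OGD control replicate 1 for Cpt2, and OGD replicate 1 or 2 for Cpt1a, ended these calls (edgeR adjusted p = 0.0529 to 0.231). Of 26 citric acid cycle genes 8 were higher and none was lower (median 0.09), or 5 and 1 with the length trend removed. Idh3g had 129, 115 and 118 CPM in OGD, against 98, 93.7 and 97.8 CPM in OGD control. Of 29 genes of mitochondrial protein import 14 were higher and 2 lower (median 0.16), or 9 and 2 with the length trend removed. Tomm40l, a channel subunit, rose by 0.27, while the matrix chaperone Hspa9 and its exchange factor Grpel2 fell by 0.23 and 0.30. Of 32 genes of mitochondrial fission, fusion and quality control 7 were higher (21.9%, near the 17.6% of all genes tested) and none was lower. With the length trend removed 3 were higher and 1 lower. Among the 7 was the mitophagy receptor Fundc1, with 25.1, 26.3 and 25.9 CPM in OGD, against 18, 19.8 and 18.3 CPM in OGD control. Nucleotide synthesis had 10 of 28 higher and 4 lower, or 7 and 4 with the length trend removed. Its purine genes split: Atic rose by 0.47, and Impdh2 and Ppat fell by 0.41 and 0.36.

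One-carbon and methionine metabolism stood against this, with 11 of 21 members lower (52.4%), none higher and a median of -0.26. Psph, of serine synthesis, had 94.5, 88.7 and 89.3 CPM in OGD, against 117, 112 and 120 CPM in OGD control. Mat2a, which makes S-adenosylmethionine, and Mthfd2, of the mitochondrial folate cycle, fell by 0.34 and 0.26. For Psph, Mat2a and Mthfd2 the libraries of the groups did not overlap. Amino acid transporters had 15 of 31 members lower and 1 higher (median -0.21). Slc6a6, the taurine transporter, had 493, 518 and 488 CPM in OGD, against 783, 792 and 806 CPM in OGD control, a log2 fold change of -0.67 (SE 0.04). Slc38a2, a sodium-coupled transporter of small neutral amino acids, had 435, 460 and 463 CPM in OGD, against 691, 728 and 774 CPM in OGD control. Slc6a17, a vesicular transporter, fell by 0.42. The summed astrocyte markers moved with these lists (199 to 206 CPM in OGD, 279 to 306 CPM in OGD control, 4 of 9 lower), and their part in the result was not tested. Of these sums Glul alone, itself an enzyme gene, held 104 to 110 CPM in OGD and 166 to 183 CPM in OGD control.

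In the secretory pathway N-glycan and dolichol synthesis had 15 of 39 members higher and 4 lower (median 0.10), or 12 and 5 with the length trend removed. Gmppb, which makes GDP-mannose, had the largest rise there, with 40.1, 35.9 and 36.3 CPM in OGD, against 18.9, 16 and 16.3 CPM in OGD control. Alg3 and Mgat2, a mannosyltransferase and an acetylglucosaminyltransferase, fell by 0.51 and 0.48. GPI anchor synthesis had 7 of 21 higher and 2 lower, with Pigs, of the transamidase, up by 0.25, and Piga, of the first step, down by 0.42. Coat proteins of COPI and COPII vesicles had 7 of 24 higher and 4 lower (29.2% and 16.7%, against 17.6% and 20.5% of all genes tested, median 0.06). With the length trend removed 5 were higher and 3 lower. Sec13 and Copz1 rose by 0.24 and 0.22, and Sar1a fell by 0.19. Of 50 tRNA modification enzymes 13 were higher and 1 was lower (median 0.11), with Qtrtd1 and Trit1 up by 0.43 and 0.38 and Ctu1 down by 0.47. Peroxisome biogenesis (2 of 15 higher, 1 lower) and tRNA synthetases (6 of 36 higher, 4 lower) were close to or under the share of all genes in both directions. Within the synthetases, Dars, for aspartate, had 70.6, 68.9 and 67.3 CPM in OGD, against 43.6, 49.2 and 48.9 CPM in OGD control, while Eprs, for glutamate and proline, fell by 0.37.

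More transcription factor genes were called lower than higher. Of 751 tested members of 17 factor families, 60 were higher in OGD (7.99%, against 17.6% of all genes tested) and 252 lower (33.6%, against 20.5%), with a median log2 fold change of -0.14. Without the Zfp and related C2H2 genes, 29 of 426 were higher and 156 lower (median -0.19). With the length trend removed, these counts were 29 and 154. Among the genes with 1 RefSeq transcript they were 19 and 94 of 222.

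Homeobox genes, which set regional and layer identity of the brain, had 25 of 50 tested members lower and 1 higher (median -0.29), and 127 were in the table. Otx1, a deep-layer factor, had 2.63, 3.36 and 2.63 CPM in OGD, against 4.81, 6.15 and 7.45 CPM in OGD control. Every OGD library lay below the lowest control, and the controls varied more (log2 fold change -1.10, SE 0.16, edgeR adjusted p = 2.46e-06). Six3, of the ventral forebrain, fell by 0.64, and Nkx2-1, of the medial ganglionic eminence, by 0.75 at under 4 CPM. Without OGD control replicate 1 the log2 fold change of Nkx2-1 was -0.41 and its call was lost (edgeR adjusted p = 0.188). Adnp, a homeobox gene of chromatin complexes, fell by 0.40. The member that rose was Hoxb13, named after its values were seen, with 3.32, 2.3 and 2.24 CPM in OGD, against 0.993, 1.13 and 1.41 CPM in OGD control.

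Basic helix-loop-helix factors had 26 of 58 members lower and 3 higher (median -0.31). Neurod2 and Neurod1, proneural factors of excitatory neurons, fell by 0.62 and 0.70. Neurod2 had 330, 315 and 330 CPM in OGD, against 451, 522 and 520 CPM in OGD control. Id4, an inhibitor of these factors, fell by 0.57, so that activators and an inhibitor of the family moved the same way. The T-box factor Tbr1, of layer 6 and subplate neurons, had 173, 176 and 168 CPM in OGD, against 280, 288 and 297 CPM in OGD control, a log2 fold change of -0.74 (SE 0.04). Fezf2, of subcortical projection neurons, had 139, 127 and 119 CPM in OGD, against 205, 224 and 210 CPM in OGD control, without overlap. Bcl6, a BTB repressor, had 35.8, 36.8 and 34.5 CPM in OGD, against 58.4, 58.6 and 58.5 CPM in OGD control. In each of these genes the groups did not overlap.

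The POU factors Pou3f3 and Pou3f1, of upper-layer neurons, fell by 0.70 and 0.64. Among SOX genes Sox11, Sox1 and Sox2 fell by 0.54, 0.53 and 0.49, and 9 of 30 SOX and HMG-box genes were lower and 4 higher. KLF and SP factors had 11 of 23 lower and none higher (median -0.24). Sp8 and Sp9, of interneurons, fell by 0.63 and 0.59, and the hormone-responsive Klf9 by 0.39. Forkhead genes had 7 of 19 lower and none higher, with log2 fold changes of -1.18 for Foxo4, -0.79 for Foxj1 and -0.57 for Foxo6. ETS genes had 5 of 15 lower and none higher. Elf4 had 1.06, 1.29 and 0.952 CPM in OGD, against 3.51, 4.54 and 3.91 CPM in OGD control, the largest fall among factors called with a mean logCPM of at least 1 (log2 fold change -1.84, SE 0.19). Nuclear receptors had 7 of 29 lower and 1 higher (24.1% and 3.45%, against 20.5% and 17.6% of all genes tested). Nr2f1 and Nr2f2, of cortical area patterning, were down by 0.51 and 0.61. The summed astrocyte markers, which include Sox9 (log2 fold change -0.50), moved with these families as given above, and their part in the result was not tested.

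The Zfp and related C2H2 genes, many of them repressors with a KRAB domain, had 96 of 325 members lower and 31 higher (29.5% and 9.54%, median -0.12). Zfp110, Zkscan6 and Zfp608 fell by 0.65, 0.61 and 0.48, while Zkscan7, Zfp810 and Zfp438 rose by 0.99, 0.58 and 0.56. Beside Crebzf the factors that rose included Egr1, an immediate early gene, and Stat2, of the interferon response. Stat2 had 40, 36 and 39.1 CPM in OGD, against 23.5, 19.6 and 23.8 CPM in OGD control, a log2 fold change of 0.79 (SE 0.07). Srf, the serum response factor, rose by 0.38. Nfya, Glis3, Dbp, Zfp395, Zkscan2 and Ppard rose by between 0.54 and 0.58. Leaving out 1 library ended the calls of Nfya (OGD control replicate 3, edgeR adjusted p = 0.07), of Zfp438 (OGD replicate 3 or OGD control replicate 1, 0.092 and 0.0665) and of Dbp (any library but OGD replicate 2 and OGD control replicate 1, 0.0556 to 0.0782). In the E2F and MYB, the STAT, IRF, NF-kB and NFAT, and the T-box, EBF, RUNX, GATA and NFI families, 2 of 12, 3 of 16 and 2 of 13 members were lower. These shares (16.7%, 18.8% and 15.4%) were under the 20.5% of all genes tested. The members called higher were 0, 2 and 0, in that order.

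**Figure D2:**
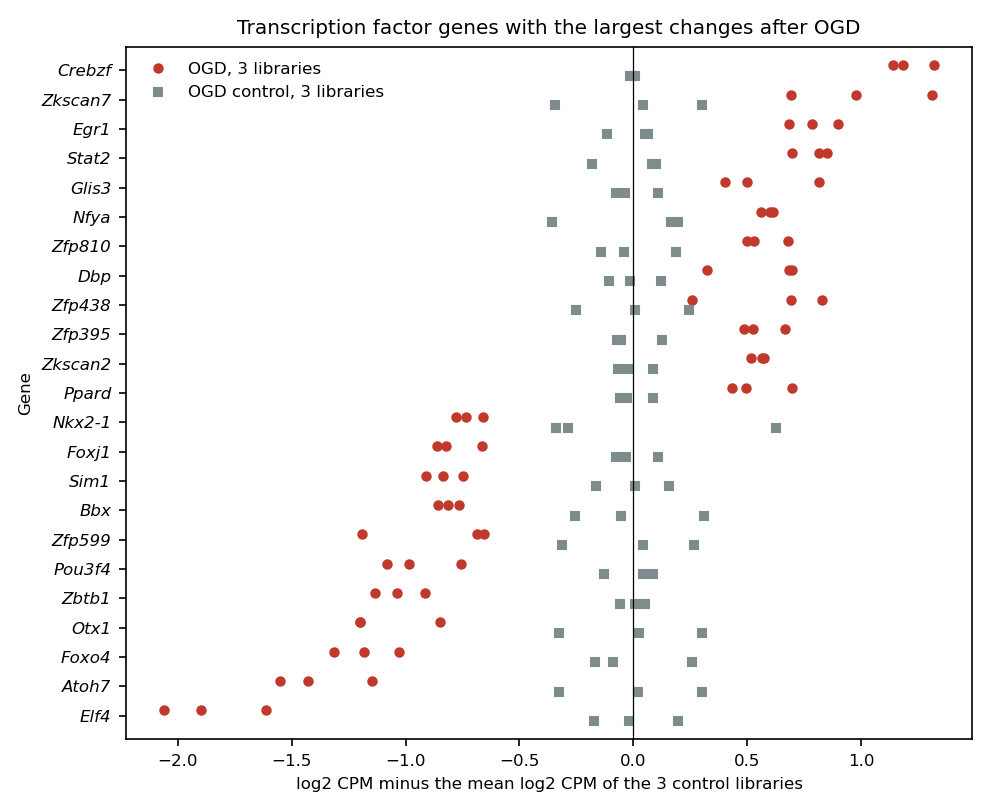
Level of the 12 transcription factor genes with the largest rises and 11 of the 12 with the largest falls (rows), as log2 CPM minus the mean log2 CPM of the 3 control libraries (horizontal axis); red circles are the 3 OGD libraries and grey squares the 3 OGD control libraries. Crebzf has narrow groups far apart, while for Zfp438 the lowest OGD library and the highest control library nearly touch.

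More genes of the signalling lists, which cover developmental, kinase and nutrient pathways, were called lower than higher. Over all 8 lists 116 of 305 members were lower (38.0%, against 20.5% of all genes tested) and 31 higher (10.2%, against 17.6%), with a median of -0.12. TGF-beta and BMP genes had 21 of 47 lower and 2 higher (median -0.26). Of the ligands Inhba, of activin A, had 29.1, 28.6 and 24.1 CPM in OGD, against 48.3, 45.4 and 48.1 CPM in OGD control, and Tgfb2 fell by 0.77. Of the receptors Bmpr1a fell by 0.49, and of the intracellular mediators Smad1 and the inhibitory Smad7 fell by 0.29 and 0.37. Members fell among ligands, receptors and mediators alike. The summed astrocyte markers, lower in OGD as given above, moved with these signalling lists, and their part in the result was not tested.

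Wnt genes had 18 of 49 lower and 2 higher, with the receptors Fzd8 and Fzd1 down by 0.85 and 0.62 and Apc2, of the destruction complex, down by 0.39. Notch genes had 12 of 31 lower and 4 higher, with the feedback inhibitor Nrarp, the target Hey1 and the coactivator Maml1 down by 1.06, 0.51 and 0.47. Hippo genes had 10 of 19 lower and 1 higher. Lats2, the kinase that restrains YAP, had 55, 59.4 and 61 CPM in OGD, against 112, 124 and 133 CPM in OGD control, a log2 fold change of -1.08 (SE 0.06). Fat4 and Amotl2, upstream of the same kinases, fell by 0.78 and 0.44. Hedgehog genes had 5 of 17 lower and 1 higher, with Ptch1, Hhip and Gas1, which bind the ligand, down by 0.65, 0.58 and 0.76.

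MAP kinase cascades had 24 of 62 lower and 9 higher. Mapk4 and the scaffold Ksr1 fell by 0.74 and 0.73. Insulin and PI3K genes had 14 of 35 lower and 3 higher, with Igfbp3, Irs2 and Pik3r3 down by 0.78, 0.59 and 0.54. In the mTOR and AMPK list 12 of 45 were lower and 9 higher (26.7% and 20%, against 20.5% and 17.6% of all genes tested). Ddit4, an inhibitor of mTORC1 and a HIF target, rose, with 583, 544 and 528 CPM in OGD, against 396, 432 and 390 CPM in OGD control, without overlap. Sesn2, a leucine sensor that also inhibits mTORC1, fell, with 202, 200 and 190 CPM in OGD, against 285, 273 and 259 CPM in OGD control. Ddit4 and Sesn2 thus moved in opposite directions. Ulk1, which starts autophagy, fell by 0.38.

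Genes of cell contact and axon guidance had 67 of 151 members lower (44.4%) and 14 higher (9.27%), with a median of -0.21, and 67 and 17 with the length trend removed. Ephrins and Eph receptors had 10 of 19 lower and none higher (median -0.35). The ligands Efnb2 and Efnb1 fell by 0.60 each and the receptor Epha4 by 0.58. Efnb2 had 292, 324 and 315 CPM in OGD, against 437, 477 and 498 CPM in OGD control. Cadherins and delta protocadherins had 16 of 30 lower and 1 higher (median -0.33). Pcdh17, an adhesion molecule of corticobasal ganglia circuits, had 229, 264 and 247 CPM in OGD, against 427, 429 and 436 CPM in OGD control, and Pcdh1 and Cdh11 fell by 0.81 and 0.57. The control libraries of Pcdh17 were within a narrow range and every OGD library lay far below it.

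Leucine-rich repeat and immunoglobulin adhesion proteins of synapses had 22 of 50 lower and 1 higher. Lrrtm1, a neurexin partner, had 173, 183 and 206 CPM in OGD, against 308, 361 and 366 CPM in OGD control, and Lrrc4 and Lingo1 fell by 0.61 and 0.51. Enzymes of heparan and chondroitin sulphate synthesis had 19 of 40 lower and 4 higher, with Hs3st2, Chsy1 and Glce down by 0.72, 0.66 and 0.62. Orphan and adhesion receptors had 25 of 64 lower and 3 higher, among them Gpr85. Slits, Robos, netrins and their receptors had 9 of 22 lower and 1 higher, with Flrt2 down by 0.78. Semaphorins, plexins and neuropilins moved both ways, with 8 of 26 lower and 6 higher (30.8% and 23.1%, both above the shares of all genes tested). Their log2 fold changes ran from -0.74 to 0.70. Sema4c, Sema6a and Nrp1 fell by 0.71, 0.56 and 0.56. Receptor tyrosine kinases had 6 of 28 lower and 2 higher (21.4% and 7.14%, against 20.5% and 17.6% of all genes tested). Of these Ntrk2, the BDNF receptor, had 50, 56.7 and 57.9 CPM in OGD, against 87.6, 96.7 and 97.8 CPM in OGD control. Fibroblast and mural markers and endothelial markers, which are low, were also lower as sums in OGD (16.3 to 19.8 CPM against 20.9 to 23 CPM, and 5.08 to 5.77 CPM against 6.65 to 7.21 CPM), and their part in the result was not tested. Of the 7 fibroblast and mural markers tested, only Col1a1 was called, and it was lower. Col1a1 had 9.21, 9.92 and 8.9 CPM in OGD, against 14.4, 12.4 and 13 CPM in OGD control. None of the 3 endothelial markers tested was called.

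**Figure D3:**
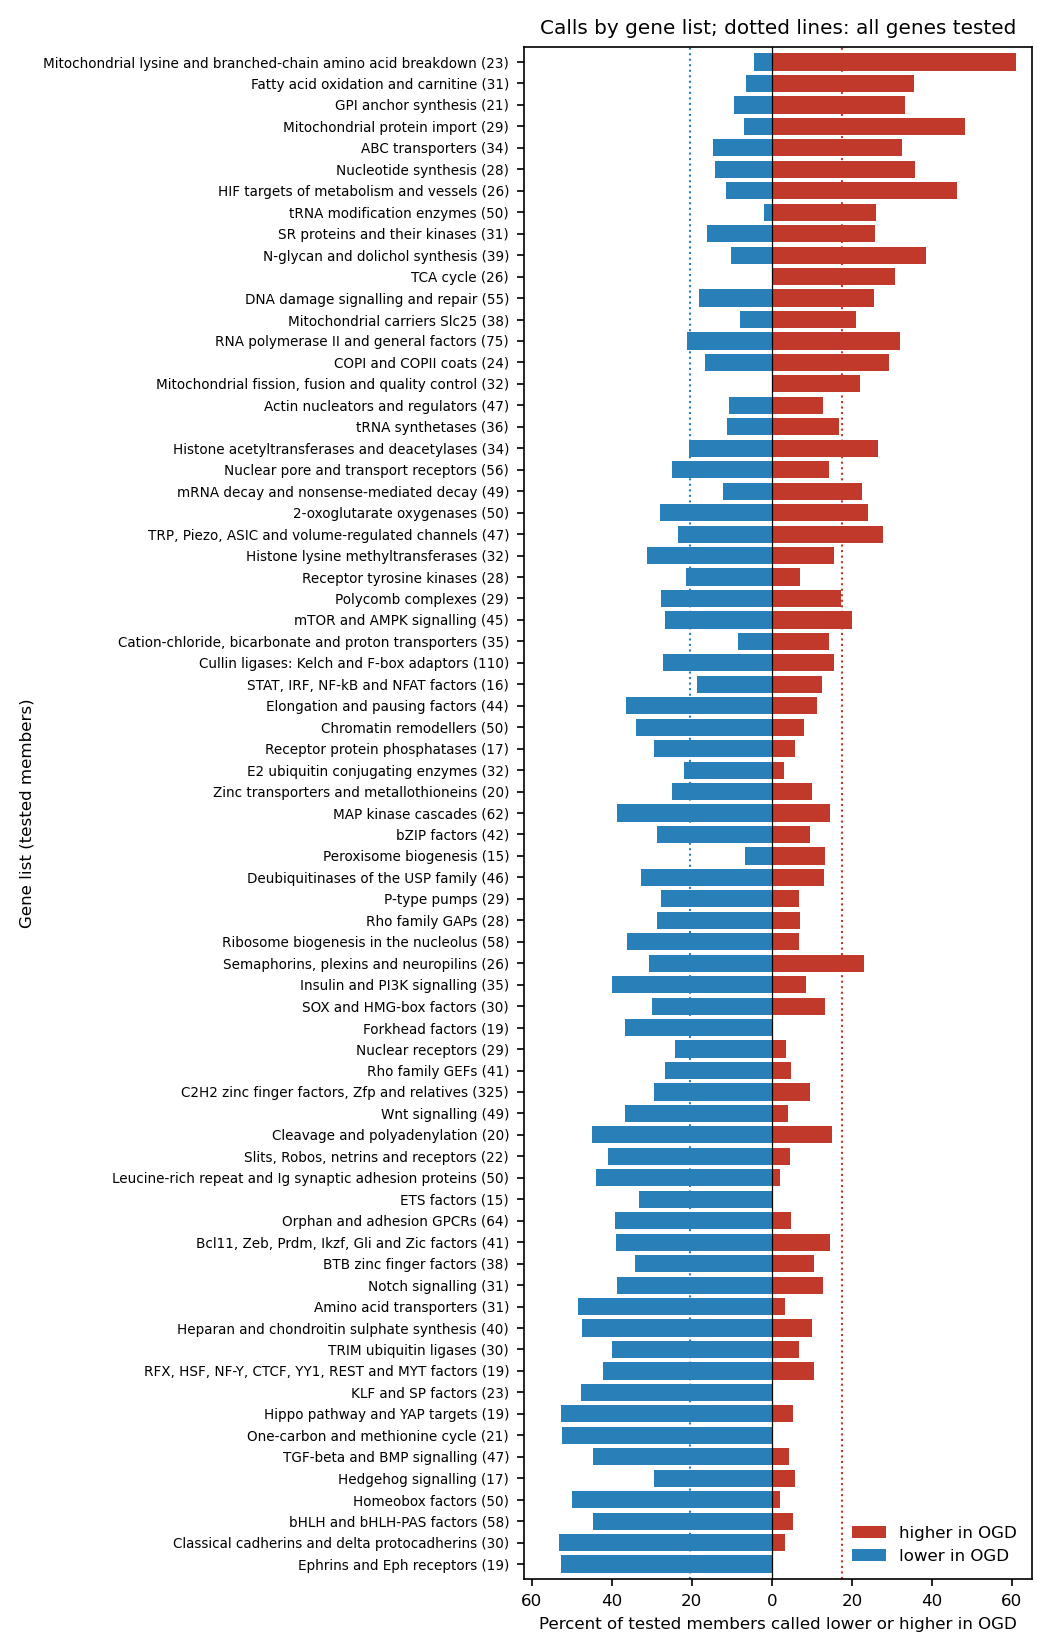
Percent of tested members called lower (blue, to the left) or higher (red, to the right) in OGD for each gene list with at least 15 tested members, ordered by the median log2 fold change, with the number tested in parentheses. Dotted lines mark the 20.5% lower and 17.6% higher of all genes tested; the breakdown of lysine and branched-chain amino acids is at the top with 60.9% higher, and ephrins and Eph receptors are at the bottom with 52.6% lower.

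The machinery of transcription and RNA processing was split. RNA polymerase II and general factors had 24 of 75 higher and 16 lower (32% and 21.3%, against 17.6% and 20.5% of all genes tested). With the length trend removed these counts were 15 and 16. Taf4b, Med13 and Taf13 fell by 1.08, 0.42 and 0.39. Med12, named after its values were seen, had 77.5, 70.4 and 73.8 CPM in OGD, against 52.2, 51.6 and 54.6 CPM in OGD control, and so moved against Med13 of the same kinase module. Elongation and pausing factors had 16 of 44 lower and 5 higher. Hexim1, which holds the elongation kinase P-TEFb inactive, had 43.6, 39.5 and 39.7 CPM in OGD, against 74.1, 77.8 and 79.7 CPM in OGD control, a log2 fold change of -0.92 (SE 0.06, edgeR adjusted p = 2.43e-13). Leo1, of the PAF1 complex, fell by 0.44. Cleavage and polyadenylation factors had 9 of 20 lower and 3 higher, with Pcf11, Wdr33 and Rbbp6 down by 0.56, 0.37 and 0.35. Pcf11 ends transcription at the 3′ end of genes, and overlaps genes on the other strand.

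Ribosome biogenesis had 21 of 58 lower and 4 higher (25 and 4 with the length trend removed), with Ddx21, Tsr1 and Nop14 down by 0.50, 0.45 and 0.40. SR proteins and their kinases had 8 of 31 higher and 5 lower (25.8% and 16.1%, against 17.6% and 20.5% of all genes tested). Srsf3 had 47.4, 51.2 and 44.9 CPM in OGD, against 34.1, 37.9 and 35.3 CPM in OGD control, and the kinase Clk3 fell by 0.30. Kpna2, an importin alpha, had 92.2, 93.4 and 85.5 CPM in OGD, against 151, 160 and 175 CPM in OGD control. Its list of nuclear pore and transport genes had 14 of 56 lower and 8 higher (25% and 14.3%), near the shares of all genes tested. In mRNA decay Btg2, an activator of deadenylation, rose by 0.49 and Cnot11 and Dcp1a fell by 0.50 and 0.33, with 11 of 49 higher and 6 lower (22.4% and 12.2%).

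Chromatin remodellers had 17 of 50 lower and 4 higher (34% and 8%, against 20.5% and 17.6% of all genes tested). Beside Baz1a the falls with the smallest adjusted p were those of Baz2b, with 75.3, 81.8 and 75.8 CPM in OGD, against 117, 126 and 136 CPM in OGD control, and Arid2, which fell by 0.53. Polycomb genes had 8 of 29 lower and 5 higher (27.6% and 17.2%), nearer the shares of all genes tested. The core subunit Eed had 35, 35 and 35.2 CPM in OGD, against 49.5, 49.5 and 54.7 CPM in OGD control. The alternative catalytic subunit Ezh1 had 27.5, 28.3 and 29.4 CPM in OGD, against 18.4, 17.4 and 18.9 CPM in OGD control. Eed and Ezh1, subunits of the same complex, thus moved apart. The acetyltransferase Crebbp fell by 0.41. In protein turnover TRIM ligases had 12 of 30 lower and 2 higher (40% and 6.67%). Kelch and F-box adaptors had 30 of 110 lower and 17 higher (27.3% and 15.5%), nearer the shares of all genes tested. Deubiquitinases had 15 of 46 lower and 6 higher (32.6% and 13%), with Usp1, Usp31 and Usp7 down by 0.56, 0.45 and 0.36.

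Actin regulators had 6 of 47 higher and 5 lower, shares under those of all genes in both directions. Ion channels of the TRP, Piezo and ASIC kind and their relatives had 13 of 47 higher and 11 lower (27.7% and 23.4%, against 17.6% and 20.5% of all genes tested). Among P-type pumps 8 of 29 were lower and 2 higher (27.6% and 6.9%). ABC transporters had 11 of 34 higher and 5 lower (32.4% and 14.7%), with Abcg4 up by 0.32 and Abcd2 and Abcg1 down by 0.64 and 0.57.

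Some genes that do not code for protein were also called. Of 146 lincRNA genes 16 were higher and 12 lower (11% and 8.22%), under the 17.6% and 20.5% of all genes tested. Snhg1 and Snhg11, hosts of small nucleolar RNAs, rose by 0.23 and 0.46, and Mir17hg, host of the miR-17 cluster, fell by 1.04 at about 1 to 2 CPM. The 841 tested genes that carry only a RIKEN or Gm name, protein-coding genes among them, had 14.6% higher and 11.4% lower, with a median of 0.07. These shares, too, were under those of all genes tested.

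The OGD response was ordered by transcript length. Among 13023 tested genes with an annotated length, ordered into 10 bins of nearly equal size, the median log2 fold change was 0.11 in the shortest bin (127 to 1435 bases) and -0.09 in the longest (6952 to 123179 bases). The medians were lower at every step from short to long. In the shortest bin 25.1% of genes were higher and 7.36% lower, and in the longest 11.7% were higher and 32.1% lower. Each library's log2 CPM, as a deviation from the mean of the 6 libraries, had a slope per doubling of length of -0.0466, -0.0073 and -0.031 in OGD, and of 0.0273, 0.0235 and 0.0341 in OGD control. The slopes of the groups did not overlap, the controls were close to each other, and OGD replicate 2 had the weakest slope of the OGD libraries. The mean slopes were -0.0283 ± 0.0198 in OGD and 0.0283 ± 0.0054 in OGD control (SD, n = 3 each), a difference of -0.0566 (exact two-sided permutation test over samples, p = 0.1, the smallest p that 3 against 3 allows). The same measure for KA against KA control gave 0.0175 (exact permutation test, p = 0.6).

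**Figure D4:**
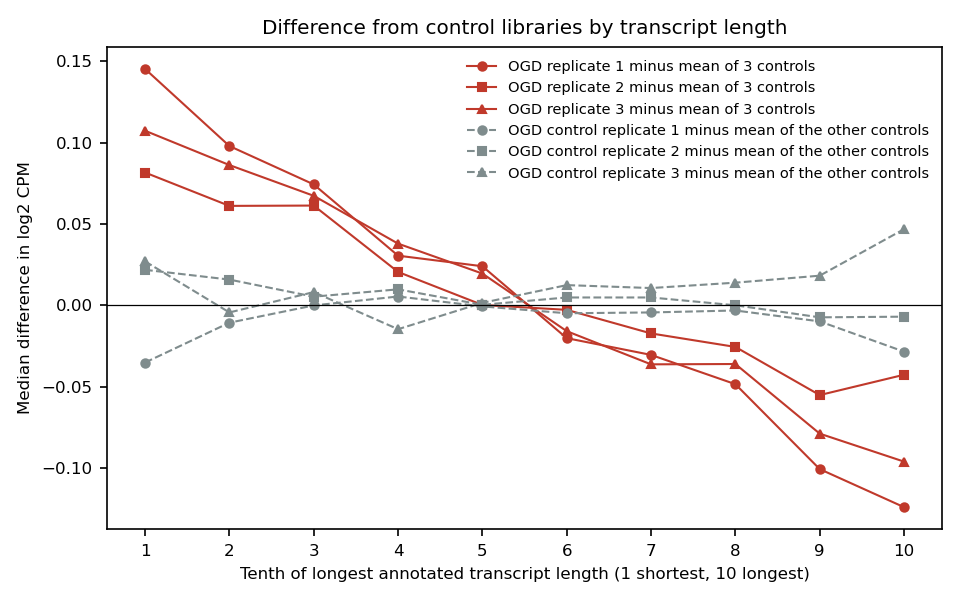
Median difference in log2 CPM (vertical axis) over the genes of each of 10 bins of transcript length (horizontal axis, 1 shortest to 10 longest); red solid lines are the 3 OGD libraries minus the mean of the 3 controls and grey dashed lines each control library minus the mean of the other controls. All 3 OGD libraries run from above 0 at the short end to below 0 at the long end, with OGD replicate 2 the shallowest; the control lines stay between -0.0352 and 0.0468.

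The trend was not the same for each kind of length. Across genes, which are not independent replicates and share these 6 libraries, Spearman's rho of the log2 fold change was -0.197 with the longest transcript, -0.193 with the untranslated length and -0.153 with the coding length, but -0.082 with the genomic span and 0.04 with the number of exons. It was 0.021 with GC content and -0.061 with mean level. With transcripts split into short, middle and long classes of nearly equal size, long genes with 3 exons had a median of -0.20 (40.7% of 167 lower, 6.59% higher) and genes with over 20 exons -0.03 (21.7% of 1314 lower, 14.4% higher). Among short transcripts, genes with 1 exon had a median of 0.004 and genes with 13 to 20 exons 0.13 (31.7% of 322 higher, 6.83% lower). Among transcripts of middle length the median was lowest for genes with 2 exons (-0.11) and highest for genes with over 20 exons (0.05).

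**Figure D5:**
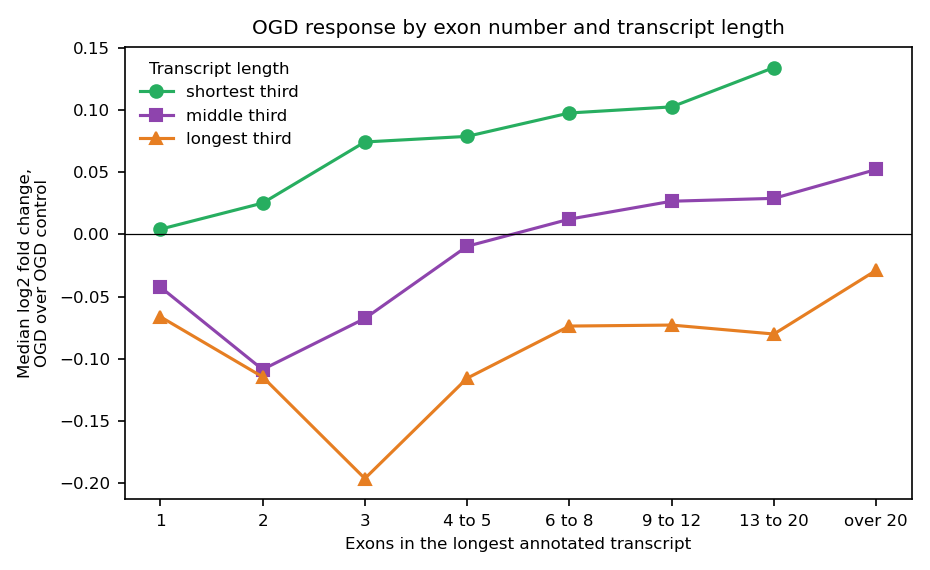
Median log2 fold change of OGD over OGD control (vertical axis) by the number of exons in the longest annotated transcript (horizontal axis), for short, middle and long transcripts (green circles, purple squares and orange triangles; groups of under 20 genes left out). Green points lie above orange points wherever both are drawn, and the lowest value is -0.1962, for long genes with 3 exons.

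The large falls did not follow length. The 164 genes that were over 2-fold lower had a median longest transcript of 3171.5 bases, against 3436 bases over all genes tested. Their promoter windows held the TATAAA sequence, on either strand, in 25 of 119, against 835 of 9806 windows of all genes tested (8.52%), and had a median of 11 CpG pairs, against 21. Since they are of low level (median 0.2 log2 CPM), level moves with this difference, and its part was not tested. All genes called lower had a median of 23 CpG pairs and held TATAAA in 9.46%, and all genes called higher had 20 and 7.52%.

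Set beside the response to KA, which has its own controls, the OGD response ran the other way for most of the genes called. KA against KA control had 35.2% of genes called higher and 37.6% lower, and the difference of the OGD and KA responses was called for 68.2% of genes (edgeR, same fit). Of the 2315 genes higher in OGD, 1473 were lower in KA (63.6% of them and 29.8% of the 4936 genes lower in KA), and 445 were higher in KA (19.2%, and 9.63% of 4622). Of the 2694 genes lower in OGD, 1683 were higher in KA (62.5%, and 36.4% of 4622), and 523 were lower in KA (19.4%, and 10.6% of 4936). Of the 164 genes over 2-fold lower in OGD, 117 were higher and 4 lower in KA, with a KA median of 1.262 on the log2 scale. The 54 genes over 2-fold higher in OGD did not run the other way on balance, with 18 higher and 16 lower in KA and a KA median of 0.295. Transcription factors other than C2H2 Zfp genes, lower in OGD, had 239 of 426 higher and 84 lower in KA, with a median of 0.47. The difference of responses was called for 301 of them. The Zfp and related C2H2 genes, also lower in OGD, had 75 of 325 higher and 174 lower in KA, with a median of -0.29, and so leaned the same way under both injuries. Over all 17 factor families 314 of 751 were higher and 258 lower in KA. The lysine and branched-chain list, higher in OGD, had 17 of 23 lower and 2 higher in KA (median -0.77).

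The untreated libraries of the 2 experiments were not at 1 level for Baz1a. It averaged 22.6 ± 1.10 CPM with OGD, against 68.3 ± 3.28 CPM for its controls, and 49.0 ± 4.38 CPM with KA, against 5.98 ± 0.466 CPM for the KA controls (SD, n = 3 each). The mean with OGD thus lay above that of the KA controls. How far such a difference between controls bears on the opposite directions was not tested.

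Not every gene was opposed. Crebzf rose in both, with log2 fold changes of 1.22 in OGD and 1.07 in KA. P4ha1, Ddit4 and Hspa1a rose in both (KA log2 fold changes 0.92, 1.07 and 1.45). Narf, Pdk1 and Ndrg1, which rose in OGD, fell in KA (KA log2 fold changes -1.14, -0.95 and -0.67), so the HIF targets did not move as one under KA. As a list they leaned higher in KA too: 14 of 26 were higher and 8 lower, with a KA median of 0.446. Over all genes tested 35.2% were higher and 37.6% lower in KA, with a KA median of -0.021. Pcdh1, Cnot11 and Ksr1, which fell in OGD, had KA log2 fold changes of -0.02, -0.01 and 0.02.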

How the data were processed

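RNA-seq libraries were made from total RNA with the TruSeq RNA kit v2, per the labels' protocols; this kit does not mark strand. The authors deposited raw read counts per gene and library, and per the submitters' processing notes they used bcl2fastq 1.8.4, TopHat 1.4.1 and HTSeq 0.6.1 on mm10; the sources used here do not name the settings or the gene annotation. The OGD columns carry a header spelled OGT, which was matched to the sample titles.

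Counts were tested with edgeR 4.0.16 in R 4.3.3: genes were kept with filterByExpr (minimum count 10, minimum total 15), libraries were scaled by TMM, and 1 quasi-likelihood fit of 4 group means was made over all 12 libraries (8 residual degrees of freedom), so that KA libraries share in the estimate of the spread. The threshold was 0.05 on p-values adjusted over the 13139 genes tested (Benjamini-Hochberg). The SE is the log2 fold change divided by the square root of the F statistic. One count was worth 0.0479 to 0.0764 CPM in the 6 libraries, and the limit for a gene without reads was 0.144 to 0.229 CPM (3 counts, counting error only). No replicates were so alike as to be 1 library deposited again (chi-square over degrees of freedom 2.07 to 3.33), so each was counted. Transcript lengths, exons and overlaps came from GENCODE M21 (GRCm38), with 22488 of 22899 genes matched; length is that of the longest annotated transcript. To remove the length trend, a lowess curve (span 0.3) was used as an offset. The length slopes were compared by an exact permutation test over samples. The scripts were tested on simulated counts.

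The genes named were, by rule, the 15 largest rises and falls without overlap of the libraries, up to 3 members of each list with the smallest adjusted p, the 12 largest rises and falls of transcription factors, all 2-oxoglutarate oxygenases called, the HIF pathway genes, and the 10 smallest adjusted p in each direction; some genes that met these rules are not reported here. The members, the 86 gene lists and the tests were chosen with earlier results of these data known, so the lists are described by counts beside those of all genes, with no test of a list. Alternatives were DESeq2 1.42.0, its size factors, other filters, fewer libraries, genes with 1 transcript, other lengths, the replicate number as a block and leaving out each library. The correlations of deviations of same-numbered OGD and OGD control libraries were 0.168, 0.037 and 0.078 over 8018 genes. Libraries of unlike number had -0.134 to 0.069. For each OGD library the same-numbered control had the highest value, but all were weak. Whether the numbers pair the samples was not settled.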

Additional observations from a re-analysis of the deposited data

Results flagged for a closer look

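For 14 of 19 genes with the smallest adjusted p in OGD, 10 higher and 9 lower, the OGD and KA responses ran in opposite directions and their difference was called (edgeR quasi-likelihood test of the difference, Benjamini-Hochberg adjusted). All 9 of the lower genes and 5 of the 10 higher genes were of this kind. Over all genes the difference was called for 68.2%, and 62.5% of genes lower in OGD and 63.6% of genes higher in OGD were called in the other direction in KA, so the count is read against those shares. In each of the 9 lower genes the mean of the OGD control libraries was above that of the KA control libraries, and in each of the 5 higher genes it was below; the part of this difference between controls was not tested. The values that follow are the OGD log2 fold change minus the KA log2 fold change, each group with its own controls.

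Among genes lower in OGD and higher in KA, the difference was -4.6298 for Baz1a, whose log2 fold changes were -1.60 in OGD and 3.03 in KA (edgeR adjusted p = 3.73e-25). Its mean was 22.6 CPM with OGD, against 68.3 CPM for the OGD controls, and 49.0 CPM with KA, against 5.98 CPM for the KA controls. The difference was -4.1199 for Ism1, -3.5679 for Dgkk, -2.3214 for Gpr85, -2.3175 for Lats2 and -2.3084 for Ints12. It was -2.0925 for Map3k5, -1.6851 for Bahcc1 and -1.6031 for Tbr1.

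Among genes higher in OGD and lower in KA, the difference was 2.0191 for Stat2, with log2 fold changes of 0.79 in OGD and -1.23 in KA (edgeR adjusted p = 3.15e-17). It was 1.7994 for Narf, 1.6092 for Faf1, 1.5725 for Aldh9a1 and 1.191 for Zcchc7. The largest edgeR adjusted p of the 14 differences was that of Zcchc7, 5.31e-12.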

How the results depend on the processing

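Of 333 named genes tested, 304 kept their direction and their side of the threshold under every setting run for them, and no called value changed direction. For the counts over 2-fold, DESeq2 gave 25 higher and 89 lower, and filtering at 1 CPM in all libraries of a group gave 30 and 107. Among the 7479 genes with 1 transcript there were 1513 higher, 1711 lower and 29 over 2-fold higher, from fewer genes tested. The length slope was -0.0305 with the union of exons, -0.0087 with the genomic span and -0.073 at a mean logCPM of at least 4. For these slopes the cause was not tested. Leaving out 1 library gave 1818 to 2053 genes higher, 2336 to 2507 lower, 44 to 74 over 2-fold higher, 159 to 192 over 2-fold lower, and length slopes of -0.067 to -0.0474. Whether the replicate numbers pair the samples was not settled. The replicate block gave 2183 higher and 2596 lower, and 50 and 162 over 2-fold, and changed the call of no named gene. The 54 large rises were of low level (median -0.19 log2 CPM), and the part of depth in them was not tested.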

Other observations

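The genes in these paragraphs were chosen after their values were seen. Genes that differ between the sexes moved apart from each other. Xist, the RNA that silences an X chromosome in female cells, had a mean of 173 ± 5.28 CPM in the OGD libraries, against 122 ± 11.2 CPM in the controls (SD, n = 3 each), without overlap, and rose by 0.51 on the log2 scale (edgeR quasi-likelihood test, adjusted p = 7.19e-07). Of the Y-linked genes, Ddx3y fell by 0.33 (edgeR adjusted p = 2.53e-06), Eif2s3y and Kdm5d rose by 0.27 and 0.35, and Uty had a log2 fold change of -0.04 (edgeR adjusted p = 0.68). The sex of the cultures was not analysed here.

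Within the P-type pumps the calcium pump gene Atp2a2 of the endoplasmic reticulum fell by 0.31, while the lipid flippase gene Atp11b rose by 0.37, with 309, 282 and 290 CPM in OGD, against 230, 206 and 244 CPM in OGD control. Of the neuron markers, Tubb3, a tubulin, rose by 0.43, while the neurofilament genes Nefl and Nefm fell by 0.52 and 0.46. The checkpoint kinase gene Atr had 22.6, 23.6 and 25 CPM in OGD, against 15, 16.6 and 15.8 CPM in OGD control, and so moved against Dtl and Cdt1 of the same list of DNA damage genes.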
